A study of Mus musculus with 6 samples.

Results

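The 43 genes described here encode the protein-folding machinery of the endoplasmic reticulum (ER), its stress sensors, its export route and the targets of the transcription factor ATF4. They were listed by name from these pathways, with earlier results of these data known, and they are 43 of the 20071 genes counted. Comparisons with all genes below are therefore descriptions. They comprise 14 chaperones and folding enzymes, and a further 8 are stress sensors and transcription factors, 4 serve ER-associated degradation, 8 are secretory carriers and 9 are ATF4 targets. All 43 passed edgeR's filter on low counts, which left 13733 genes.

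The RNA came from bone marrow mesenchymal stem cells (MSCs) of 6-week-old mice on a C57BL/6J background, with 3 libraries from Pcif1fl/fl littermates and 3 from Prrx1-Cre;Pcif1fl/fl mice. All mice carried Pcif1 alleles with loxP sites around exons 5 to 7. The second genotype also carried Prrx1-Cre, a recombinase driven by a limb mesenchyme promoter, which is not known to act in blood cells. Pcif1 encodes the enzyme that writes m6Am, a methyl mark on the first transcribed adenosine of an mRNA. All 6 libraries were made after 7 days in osteogenic medium that held dexamethasone at 100 nM, β-glycerophosphate at 5 mM and ascorbic acid at 50 μg/mL. Whether each library came from its own mouse is not stated, so the p-values measure the spread between these libraries.

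Secreted proteins, collagens above all in this lineage, enter the ER through the SEC61 channel, fold with the help of chaperones, and leave in COPII-coated vesicles. When unfolded protein builds up, IRE1 (encoded by Ern1), PERK (encoded by Eif2ak3) and ATF6 start the unfolded protein response: IRE1 splices Xbp1 mRNA, ATF6 is cleaved to a transcription factor, and PERK slows translation while the translation of Atf4 mRNA rises. ATF4 is also raised by other stresses, such as lack of amino acids, and its targets make amino acids and one-carbon units. Counts per gene show neither the splicing of Xbp1 nor the amount of ATF4 protein.

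Most of these genes sat a little higher in the Prrx1-Cre;Pcif1fl/fl cultures, and the fold changes of the ATF4 targets were the largest as a group. Levels are in CPM, the counts of a gene as a share of its library in parts per 1e+06, scaled by edgeR's TMM factors. Where 3 levels are given for a genotype they are those of replicates 1, 2 and 3, and SE is the standard error of a log2 fold change. The summed level of the 43 genes was 7034, 6959 and 6846 CPM in the Pcif1fl/fl libraries and 7835, 8131 and 7728 CPM in the other genotype, with no overlap. The fitted log2 fold change, Prrx1-Cre;Pcif1fl/fl over Pcif1fl/fl, was above 0 for 34 genes and below 0 for 9, with a median of 0.22 beside 0.0017 over all genes tested. Only 2 of the 43, Ddit3 and Chac1, passed the test, and both were higher. The test was edgeR's quasi-likelihood test with a Benjamini-Hochberg adjusted p under 0.05 over all genes. Over all genes tested, 7.40% passed it, 2.88% higher and 4.51% lower in Prrx1-Cre;Pcif1fl/fl, and the 2 members were 4.65% of the 43. An unadjusted p under 0.05 was reached by 17 members that were higher and 1 that was lower, beside 9.56% and 11.8% of all genes. At the thresholds of the study, an adjusted p under 0.05 and a change of 1 or more on the log2 scale in either direction, Chac1 alone passed, where 3.53% of all genes did.

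The groups did not overlap in 20 of the 43 genes, where the lowest Prrx1-Cre;Pcif1fl/fl value exceeded the highest Pcif1fl/fl value. Over all genes tested the share was 15.0%. The opposite order was found for 1 member, Herpud1, and for 15.7% of all genes.

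**Figure D1:**
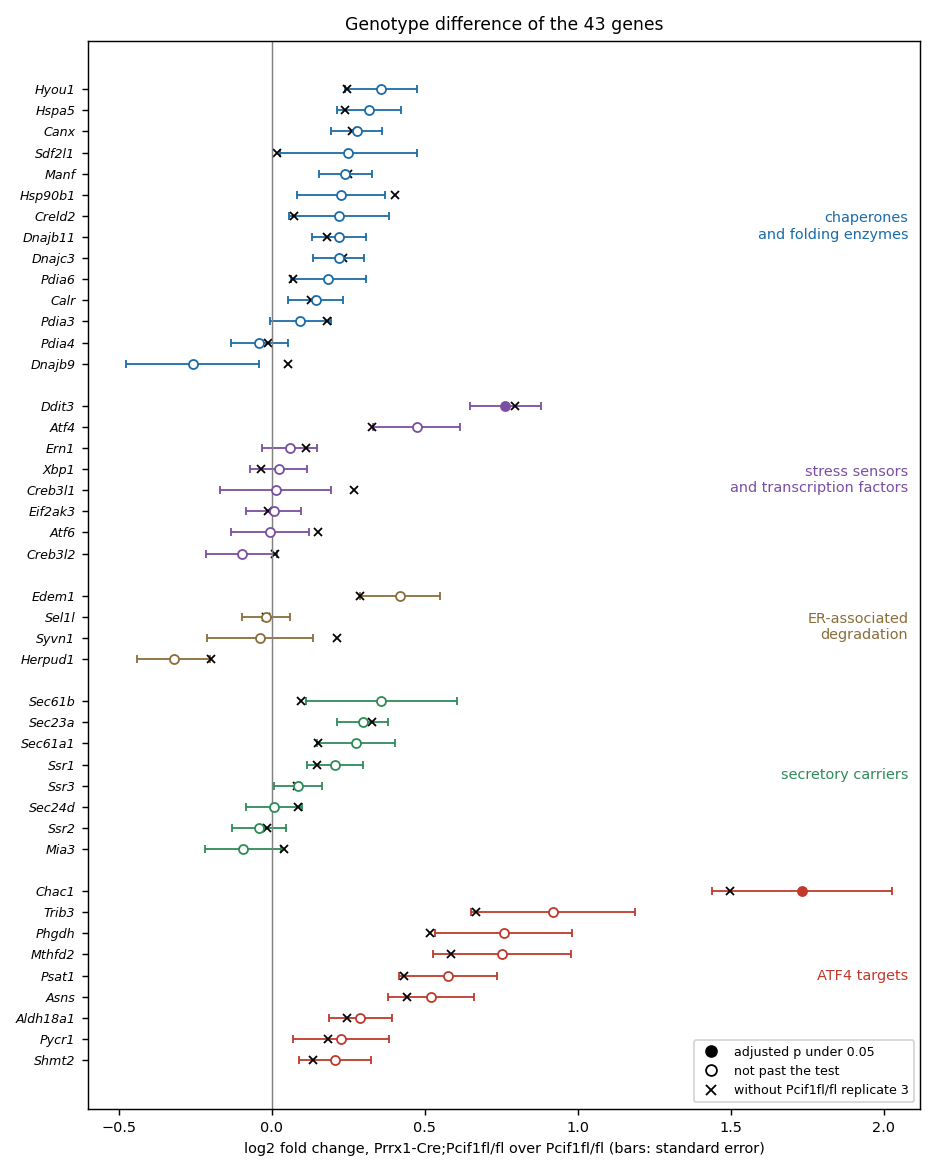
Log2 fold change of each of the 43 genes (x axis, Prrx1-Cre;Pcif1fl/fl over Pcif1fl/fl, 3 libraries each; circles with standard error bars), in 5 groups of genes (y axis). Filled circles, Ddit3 and Chac1, passed the test, and crosses give the value without Pcif1fl/fl replicate 3. The 9 ATF4 targets all lie above 0, between 0.21 and 1.73.

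One library stood apart. The chi-square of counts per gene between Pcif1fl/fl replicate 3 and its 2 fellows was 82.9 and 98.6, beside 2.83 to 10.1 for the other pairs within a genotype, and 3.63% of its counts lay on mitochondrial genes, beside 1.40% to 1.57% in the other 5. Without it, 20 members were higher and 0 lower by the same test, where 11.1% of the 13905 genes then tested were higher and 10.4% lower. DESeq2 on all 6 libraries gave 10 members higher and 0 lower, where 3.76% of all genes with an adjusted p were higher. The Pcif1fl/fl libraries held 22689775 to 28227696 counts and the others 20258209 to 22530242. Pcif1 itself did not show the deletion in counts per gene, with a log2 fold change of -0.085 (SE 0.092, adjusted p = 0.645 from edgeR). Xist, transcribed from the inactive X chromosome, was at 232 to 443 CPM in Pcif1fl/fl and at 0.722 to 1.79 CPM in Prrx1-Cre;Pcif1fl/fl libraries. The Y-linked Ddx3y was at 48.4 to 62.2 and 99.1 to 104 CPM, so that every Pcif1fl/fl library held both RNAs. Whether those libraries mix cells of male and female mice was not tested. These sex-linked RNAs moved with genotype, and an effect of sex and one of genotype cannot be told apart.

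The cultures held more than MSCs. The 10 mesenchymal markers summed to 10810 to 14130 CPM in Pcif1fl/fl against 17480 to 18600 CPM in Prrx1-Cre;Pcif1fl/fl libraries, and the 10 macrophage markers, led by Lyz2, summed to 28430 to 30460 and 27900 to 31340 CPM. The mesenchymal markers did not move as one: Cd44, Col1a1, Col1a2, Thy1 and Vim rose, Eng and Pdgfra fell, and 3 did not pass edgeR's test. Of these 7 calls that of Eng alone was kept in all 6 fits that leave out a library. Col1a1 and Col1a2 made up most of the sum in every library. None of the 10 macrophage markers passed edgeR's test, and an unadjusted p under 0.05 was reached by 2 that were higher and 1 that was lower. DESeq2 called 2 of them higher, and 3 were higher and 1 lower by edgeR without Pcif1fl/fl replicate 3. Ptprc, listed with them, was at 171 to 240 and 224 to 245 CPM. Osteoblast markers summed to 10110 to 17260 and 12080 to 20310 CPM, nearly all of it Spp1, while Bglap, which encodes osteocalcin, stayed at 0.249 CPM or less in every library and Sp7, Alpl and Ibsp fell. Of 8 tested adipocyte markers 5 fell, among them Adipoq, from 42.9 to 53.8 CPM to 0.289 to 1.49 CPM, and the adipocyte markers summed to 791 to 837 and 671 to 871 CPM. Of the 8, 2 had a log2 fold change above 0, and DESeq2 called 1 adipocyte marker, Fabp4, higher. Without Pcif1fl/fl replicate 3 edgeR called 2 higher and 6 lower. Endothelial markers summed to 35.1 to 46.8 and 32.8 to 37.3 CPM (Pecam1 4.96 to 9.07 and 4.47 to 5.58), neutrophil markers to 3.58 to 5.34 and 5.31 to 6.42 CPM (S100a8 0.294 to 0.612 and 1.11 to 1.40), and markers of plasma and B cells, whose ER is large, to 4.81 to 7.64 and 3.37 to 4.14 CPM (Jchain 0.306 to 0.753 and 0.149 to 0.385). Of the neutrophil markers S100a8 rose (adjusted p = 0.0394 from edgeR, past the test in 1 of the 6 fits that leave out a library), and of the markers of plasma and B cells Igkc fell (adjusted p = 0.0147, past it in 4 of the 6). The part of these cell types in the values below was not tested, and in bulk RNA fewer cells of a type and less RNA per cell cannot be told apart.

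Atf4, which encodes the bZIP transcription factor itself, was at 116, 119 and 82.9 CPM in the Pcif1fl/fl libraries and at 154, 135 and 152 CPM in the libraries of Prrx1-Cre;Pcif1fl/fl cultures. The groups did not overlap, and Pcif1fl/fl replicate 3 was the lowest library. The log2 fold change of Atf4 was 0.47 (SE 0.14) and did not pass edgeR's test (adjusted p = 0.0920). Without that replicate it was 0.33 (SE 0.073, adjusted p = 0.00440 from edgeR), and with DESeq2 the adjusted p was 0.0413.

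Ddit3 encodes CHOP, a partner of ATF4 that is raised in prolonged stress. It lies at chr10:127290774-127296288 on the forward strand of GRCm38. Its level was 11.1, 12.4 and 12.6 CPM in Pcif1fl/fl against 19.8, 19.96 and 21.6 CPM in Prrx1-Cre;Pcif1fl/fl libraries. The libraries of each genotype lay close together, the groups were far apart, and Pcif1fl/fl replicate 3 was not set off from the others. The level rose 1.70-fold, a log2 fold change of 0.76 (SE 0.12, n = 3 per genotype, adjusted p = 0.00581 from edgeR). Of its exonic bases 10.9% overlap other annotated genes, Mars and Gm4189 on the opposite strand and a second entry of the same name, and the use of strand in counting is not given in the sources used here.

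The ATF4 targets are shown with the motif they are known for. The C/EBP-ATF response element (CARE), searched as TGATGNAA on both strands, was looked for in the RefSeq promoters of GRCm38.p6, 250 bases before to 50 bases after a gene's start. Of the 43 members 37 had a promoter in that table, 38 promoters in all since Psat1 had 2; Atf6, Creb3l1, Hyou1, Manf, Sec61a1 and Ssr2 had none. CARE was found in 4 of the 10 promoters of ATF4 targets (Asns, Chac1, Pycr1 and Trib3), in that of Herpud1, and in 3.97% of all 32851 promoters. In Trib3 the match lay 15 to 22 bases into the transcript, and the others lay upstream. The 4 upstream matches are printed 5′ to 3′ on the gene's strand with the motif in capitals, which reads as its reverse complement in Chac1 and Herpud1.
Chac1, chr2:119351038-119351067, forward strand: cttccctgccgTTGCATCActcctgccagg
Asns, chr6:7693214-7693243, reverse strand: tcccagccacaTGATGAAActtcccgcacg
Pycr1, chr11:120643833-120643862, reverse strand: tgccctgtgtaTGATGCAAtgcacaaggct
Herpud1, chr8:94386306-94386335, forward strand: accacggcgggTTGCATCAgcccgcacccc
A match is a description of the sequence and not a bound site. Of the genes with a match Chac1 rose, while Trib3, Asns, Pycr1 and Herpud1 had log2 fold changes of 0.92, 0.52, 0.23 and -0.32. Psat1 and Phgdh, with no match in this window, had 0.58 and 0.76.

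Chac1 encodes a γ-glutamylcyclotransferase that breaks down glutathione and is a target of ATF4 and CHOP. It lies at chr2:119351229-119354381 on the forward strand. Its level was 1.75, 2.46 and 1.18 CPM in Pcif1fl/fl against 6.35, 4.48 and 7.12 CPM in Prrx1-Cre;Pcif1fl/fl libraries, which rest on 33 to 67 and 90 to 148 counts. No library of one genotype reached the range of the other. The level rose 3.33-fold, a log2 fold change of 1.73 (SE 0.29, adjusted p = 0.00950 from edgeR). It was the largest fold change and, per kilobase, the lowest level of the 43 genes in Pcif1fl/fl, at a mean of 1.10 CPM per kb of exon, beside 3.65 in Prrx1-Cre;Pcif1fl/fl. Without Prrx1-Cre;Pcif1fl/fl replicate 1 or 3 its adjusted p was 0.0505 and 0.0507.

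Trib3 encodes a pseudokinase that restrains ATF4 and CHOP. Its level was 4.24, 3.53 and 2.01 CPM in Pcif1fl/fl against 7.07, 5.63 and 5.68 CPM in Prrx1-Cre;Pcif1fl/fl libraries. The groups did not overlap, but the Pcif1fl/fl libraries differed among themselves by more than the others did. The log2 fold change was 0.92 (SE 0.27, adjusted p = 0.0821 from edgeR), with 56 to 97 counts a library in Pcif1fl/fl.

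The other 7 ATF4 targets are enzymes of amino acid and one-carbon synthesis, and none of them passed the test. Phgdh, the first step of serine synthesis, was at 49.1, 48.1 and 26.0 CPM in Pcif1fl/fl and at 70.4, 62.4 and 75.4 CPM in Prrx1-Cre;Pcif1fl/fl libraries, with a log2 fold change of 0.76 (SE 0.22, adjusted p = 0.0854). Mthfd2, a mitochondrial folate enzyme, was at 17.9, 20.4 and 12.9 CPM and at 33.4, 20.6 and 32.2 CPM, with 0.75 (SE 0.22, adjusted p = 0.0886). In Mthfd2 the highest Pcif1fl/fl and the lowest Prrx1-Cre;Pcif1fl/fl libraries nearly met, at 20.4 and 20.6 CPM, while in Phgdh they lay at 49.1 and 62.4 CPM. Of the 100-base stretches of Phgdh transcripts 37.3% also occur in annotated pseudogenes such as Gm7901, so that its counts are uncertain where such reads were split or dropped.

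Psat1, the next step of serine synthesis, was at 41.4, 42.1 and 29.8 CPM in Pcif1fl/fl and at 58.9, 47.8 and 62.1 CPM in Prrx1-Cre;Pcif1fl/fl libraries (log2 fold change 0.58, SE 0.16, adjusted p = 0.0700). Asns, which makes asparagine, was at 30.1, 31.6 and 25.8 CPM and at 44.9, 34.5 and 46.0 CPM (0.52, SE 0.14, adjusted p = 0.0637). Aldh18a1, the first enzyme of proline synthesis from glutamate, was at 48.0, 48.7 and 43.6 CPM and at 56.5, 52.7 and 62.3 CPM (0.29, SE 0.10, adjusted p = 0.146). These 3 genes had no overlap between genotypes. Shmt2, mitochondrial serine hydroxymethyltransferase, and Pycr1, the last step of proline synthesis, had log2 fold changes of 0.21 (SE 0.12) and 0.23 (SE 0.16), and their groups overlapped.

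The 9 ATF4 targets had a median log2 fold change of 0.58, and 7 of them had no overlap between genotypes, all 7 higher, beside 15.0% of all genes. Of the 9, 1 passed the test, beside 2.88% of all genes that were higher. Their summed level was 247, 250 and 187 CPM in Pcif1fl/fl against 338, 281 and 355 CPM in Prrx1-Cre;Pcif1fl/fl libraries. They varied together among libraries of one genotype as well: all 9 were lowest of the 3 in Pcif1fl/fl replicate 3, with a median difference from the other 2 of -0.49 on the log2 scale, and all 9 were lowest in Prrx1-Cre;Pcif1fl/fl replicate 2, with -0.25. Over all genes tested the same 2 medians were 0.0051 and 0.0080, and 42.7% and 34.5% of genes were lowest in those libraries. Without Pcif1fl/fl replicate 3 the median was 0.44 and 7 of the 9 were higher by edgeR's test, all but Shmt2 and Pycr1, beside 11.1% of all genes. By DESeq2 on all libraries 6 were higher, beside 3.76% of all genes.

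**Figure D2:**
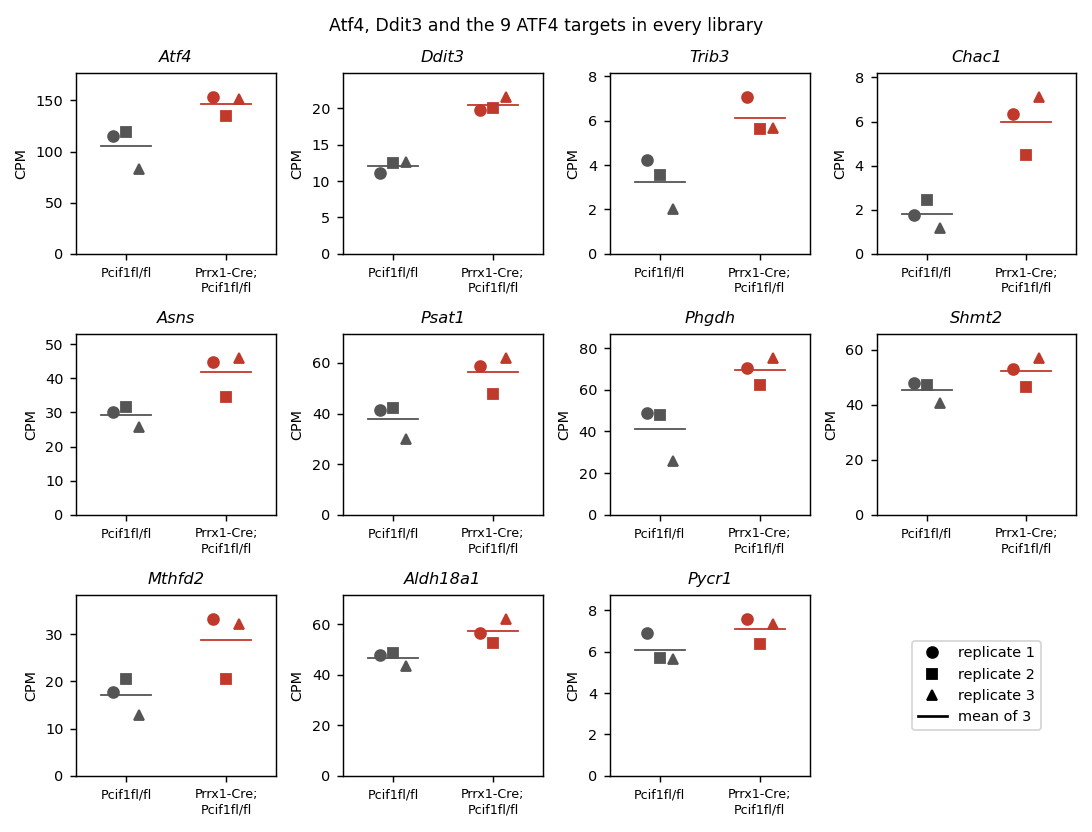
Level in CPM (y axes, each from 0) of Atf4, Ddit3 and the 9 ATF4 targets in the 3 libraries of each genotype (x axes), with bars at the means and 1 symbol for each replicate number. Pcif1fl/fl replicate 3 and Prrx1-Cre;Pcif1fl/fl replicate 2 were the lowest of their group in all 9 targets, and for Ddit3 the groups lie apart at 11.1 to 12.6 and 19.8 to 21.6 CPM.

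A wider list of ATF4 and CHOP targets, none of them among the 43, held 51 genes, of which 50 were tested. Of these 5 were higher and 1 lower by edgeR's test, beside 2.88% and 4.51% of all genes, with a median log2 fold change of 0.18. With total-count scaling Lars, Slc7a1 and Slc7a5 did not pass, which left 2 higher. The largest step among those named was in Atf3, a stress-induced bZIP factor, at 25.3, 28.6 and 18.8 CPM in Pcif1fl/fl against 53.6, 36.4 and 55.0 CPM in Prrx1-Cre;Pcif1fl/fl libraries (log2 fold change 1.00, SE 0.20, adjusted p = 0.0201). Atf3 had the same low libraries as the 9 targets. Gars, glycyl-tRNA synthetase, was at 100 to 113 and 137 to 145 CPM (0.38, SE 0.087, adjusted p = 0.0340). The others that rose were Lars, leucyl-tRNA synthetase (0.43), and the amino acid transporters Slc7a1 (0.49) and Slc7a5 (0.60). The gene that fell, Slc1a5, encodes a glutamine transporter and was at 125, 108 and 86.1 CPM in Pcif1fl/fl and at 63.7, 54.9 and 58.1 CPM in Prrx1-Cre;Pcif1fl/fl libraries (log2 fold change -0.85, SE 0.14, adjusted p = 0.00850). These counts changed when single libraries were left out. Without Pcif1fl/fl replicate 1, 2 or 3 there were 2, 1 and 16 higher, beside 2.10%, 1.41% and 11.1% of all genes, and 1, 1 and 6 lower, beside 3.49%, 3.17% and 10.4%. Without Prrx1-Cre;Pcif1fl/fl replicate 1, 2 or 3 there were 0, 2 and 0 higher and 1, 0 and 0 lower, beside 1.06%, 1.23% and 1.07% of all genes that were higher and, without replicate 1 or 3, 2.32% and 2.35% that were lower. Of these 6 fits Atf3 passed in 3, Gars, Slc7a1 and Slc7a5 in 2, Lars in 1 and Slc1a5 in 4.

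None of the 3 stress sensors passed the test, and their log2 fold changes lay near 0. Ern1 was at 58.9, 59.0 and 65.4 CPM in Pcif1fl/fl and at 65.4, 62.1 and 63.6 CPM in Prrx1-Cre;Pcif1fl/fl libraries. Eif2ak3 was at 48.0, 48.2 and 45.9 CPM and at 45.8, 50.1 and 46.8 CPM. The groups overlapped in both genes, with log2 fold changes of 0.059 (SE 0.090) and 0.0068 (SE 0.091). Atf6 was at 101, 104 and 137 CPM and at 114, 118 and 109 CPM, with -0.0048 (SE 0.13). Pcif1fl/fl replicate 3 was here the highest library, and without it Atf6 had 0.15 (SE 0.067, adjusted p = 0.122 from edgeR).

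Xbp1, the transcription factor that IRE1 turns on by splicing, was at 198, 191 and 170 CPM in Pcif1fl/fl and at 199, 182 and 187 CPM in Prrx1-Cre;Pcif1fl/fl libraries, and its log2 fold change was 0.022 (SE 0.094). Creb3l1 encodes OASIS, an ER-bound factor that activates Col1a1 in osteoblasts, and was at 56.3, 47.3 and 81.2 CPM and at 63.9, 62.1 and 60.5 CPM. Its log2 fold change was 0.013 (SE 0.18). Without Pcif1fl/fl replicate 3 it was 0.27 (SE 0.081, adjusted p = 0.0272 from edgeR), and without replicate 1 or 2 of that genotype it was -0.045 and -0.15. Its relative Creb3l2 had -0.098 (SE 0.12).

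The chaperones and folding enzymes are shown with the ER stress response element (ERSE), which ATF6 is known to bind together with NF-Y. Searched as CCAAT, any 9 bases and CCACG on both strands, it was found in 7 of the 12 chaperone promoters of the table, those of Calr, Canx, Creld2, Dnajc3, Hsp90b1, Hspa5 and Pdia6, and in that of Syvn1, beside 0.119% of all 32851 promoters. Hsp90b1 held 2 matches. A selection is printed on the gene's strand with the whole match in capitals, which reads as its reverse complement in Calr.
Hspa5, chr2:34772015-34772053, forward strand: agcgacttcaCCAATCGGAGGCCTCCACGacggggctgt
Canx, chr11:50325790-50325828, reverse strand: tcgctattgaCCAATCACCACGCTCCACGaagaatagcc
Dnajc3, chr14:118937817-118937855, forward strand: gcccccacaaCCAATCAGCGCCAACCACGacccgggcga
Calr, chr8:84847065-84847103, reverse strand: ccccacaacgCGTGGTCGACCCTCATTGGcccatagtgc
Syvn1, chr19:6046522-6046560, forward strand: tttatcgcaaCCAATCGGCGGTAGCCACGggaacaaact
The second form, ERSE-II (ATTGGNCCACG), was found in Herpud1, 42 to 52 bases before the start, and in Dnajb11, 8 to 18 bases into the transcript, beside 0.0365% of all promoters. The XBP1 element UPRE (TGACGTGG) was found in Sec23a, 7 to 14 bases into the transcript, and in Sec24d, 19 to 26 bases before the start, beside 0.676% of all promoters. No matches of different motifs overlapped. The 7 chaperones with an ERSE had a median log2 fold change of 0.22 and the 5 with a promoter and no ERSE had 0.094. The 7 ran from 0.14 in Calr to 0.32 in Hspa5, and the 5 from -0.26 in Dnajb9 to 0.25 in Sdf2l1. Dnajb11, with its ERSE-II, is among the 5, and Hyou1 and Manf, with no listed promoter, are in neither group. The difference was not tested.

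**Figure D3:**
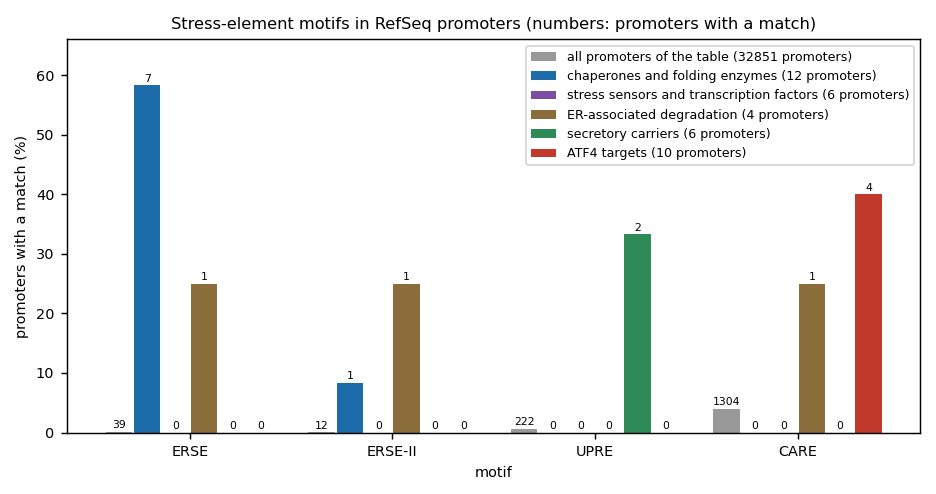
Share of promoters with a match in percent (y axis) for ERSE, ERSE-II, UPRE and CARE (x axis) in the 5 groups of genes and in all 32851 RefSeq promoters, with the number of promoters above each bar. ERSE was found in 7 of 12 chaperone promoters and CARE in 4 of 10 promoters of ATF4 targets, beside 0.119% and 3.97% of all promoters.

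None of the 14 chaperones and folding enzymes passed edgeR's test. An unadjusted p under 0.05 was reached by 6 that were higher and 0 that were lower, beside 9.56% and 11.8% of all genes. DESeq2 called 1 higher, beside 3.76% of all genes. Of the 14, 12 had a log2 fold change above 0, and 6 had no overlap between genotypes, all 6 higher in Prrx1-Cre;Pcif1fl/fl, beside 15.0% of all genes. Their median log2 fold change was 0.22. Hspa5, the Hsp70 chaperone BiP that also holds the stress sensors inactive, was at 664, 687 and 566 CPM in Pcif1fl/fl and at 785, 850 and 754 CPM in Prrx1-Cre;Pcif1fl/fl libraries. Its log2 fold change was 0.32 (SE 0.10, adjusted p = 0.118 from edgeR). Hyou1, which exchanges the nucleotide of BiP, was at 172, 159 and 128 CPM and at 197, 201 and 190 CPM, with 0.36 (SE 0.12, adjusted p = 0.117). Canx, the membrane-bound lectin calnexin, was at 516, 526 and 501 CPM and at 609, 658 and 604 CPM, with 0.28 (SE 0.084, adjusted p = 0.0918).

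In Canx all libraries of each genotype lay close together, while in Hspa5 and Hyou1 Pcif1fl/fl replicate 3 was the lowest. The 3 remaining chaperones with no overlap were Manf, a secreted survival factor of the ER, with a log2 fold change of 0.24 (SE 0.087), and the BiP cochaperones Dnajb11 and Dnajc3, both with 0.22 (SEs 0.088 and 0.082). Their adjusted p-values lay between 0.149 and 0.196. Calr, the soluble lectin calreticulin, had the highest level of the 43 genes per kilobase of exon, at means of 290 and 320 CPM per kb, and its groups overlapped (log2 fold change 0.14, SE 0.090).

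Hsp90b1, the Hsp90 chaperone GRP94, was at 293, 328 and 430 CPM in Pcif1fl/fl and at 387, 441 and 403 CPM in Prrx1-Cre;Pcif1fl/fl libraries. The groups overlapped through Pcif1fl/fl replicate 3, which was the highest of its group, the opposite of Hspa5 in the same libraries. The log2 fold change was 0.23 (SE 0.14, adjusted p = 0.417 from edgeR) with it and 0.40 (SE 0.073, adjusted p = 0.000891) without it. Of its exonic bases 15.7% overlap other annotated genes. Among the protein disulfide isomerases, Pdia3 had 0.094 (SE 0.10), Pdia4 -0.040 (SE 0.094) and Pdia6 0.19 (SE 0.12), and each overlapped. Sdf2l1 and Creld2, both induced by ER stress, had 0.25 and 0.22, with SEs of 0.22 and 0.16. Dnajb9, a BiP cochaperone that keeps IRE1 inactive, had -0.26 (SE 0.22), with Pcif1fl/fl replicate 3 at 70.6 CPM and the other 5 libraries at 39.5 to 48.5 CPM.

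Within Prrx1-Cre;Pcif1fl/fl the chaperones did not follow the ATF4 targets. In Prrx1-Cre;Pcif1fl/fl replicate 2, where all 9 ATF4 targets were lowest of the 3, 12 of the 14 chaperones were highest, beside 38.4% of all genes, with a median difference from the other 2 libraries of 0.11 on the log2 scale. In Pcif1fl/fl replicate 3, where all 9 ATF4 targets were also lowest, 4 chaperones were highest and 7 lowest, beside 42.7% and 42.7% of all genes. The median difference of the chaperones from the other 2 libraries was -0.054 there, the same sign as the -0.49 of the ATF4 targets. Without Pcif1fl/fl replicate 3, 7 of the 14 chaperones were higher by edgeR's test and 0 lower, beside 11.1% and 10.4% of all genes. The median log2 fold change of the 14 was then 0.18, and the 7 were Canx, Dnajc3, Hsp90b1, Hspa5, Hyou1, Manf and Pdia3. By DESeq2 on all libraries Canx alone was higher, beside 3.76% of all genes.

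**Figure D4:**
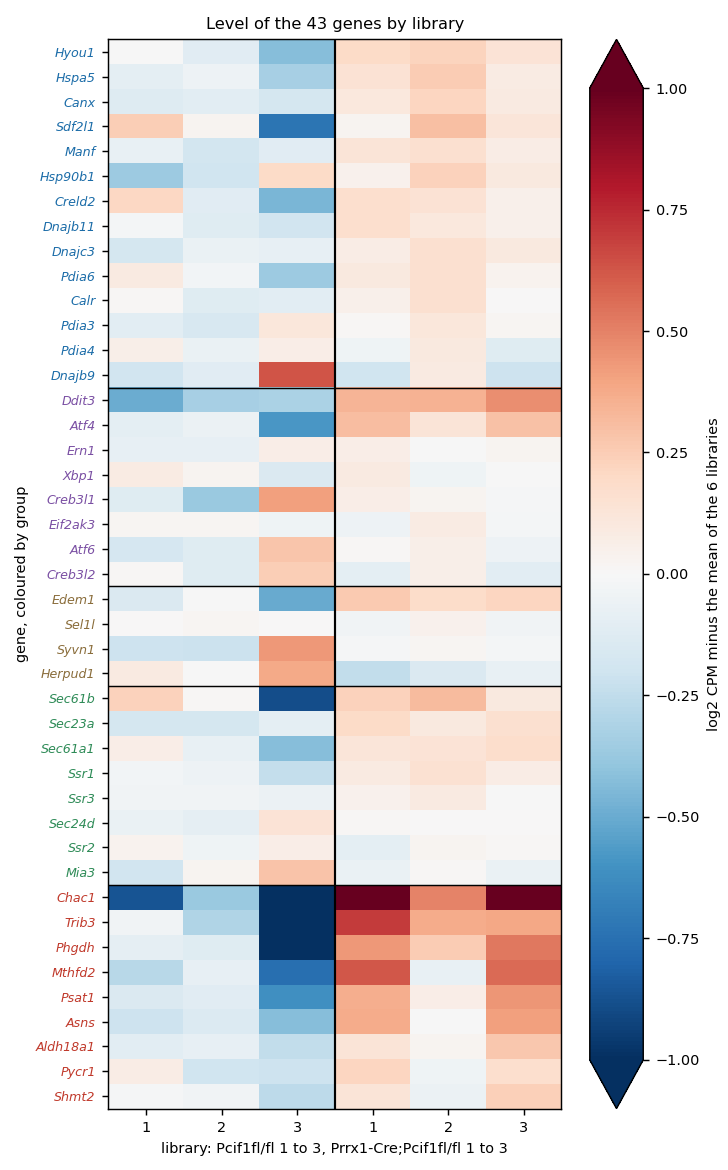
Level of each of the 43 genes (rows, coloured by group) in the 6 libraries (columns), as log2 CPM minus the mean of the 6 libraries, with the colour scale ending at -1 and 1. Most rows are darker blue on the left and red on the right, the ATF4 targets most so, while Pcif1fl/fl replicate 3 goes from the lowest to the highest library from row to row.

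In ER-associated degradation, which returns misfolded protein to the proteasome, none of the 4 members passed edgeR's or DESeq2's test. An unadjusted p under 0.05 was reached by 1 higher and 1 lower gene, beside 9.56% and 11.8% of all genes. Edem1, a lectin that extracts misfolded glycoproteins, was at 386, 426 and 300 CPM in Pcif1fl/fl and at 510, 483 and 494 CPM in Prrx1-Cre;Pcif1fl/fl libraries. The log2 fold change was 0.42 (SE 0.13, adjusted p = 0.0986 from edgeR). Herpud1, a scaffold of the degradation complex, was at 71.8, 67.4 and 87.7 CPM and at 56.8, 61.0 and 64.0 CPM. It was the one member whose Prrx1-Cre;Pcif1fl/fl libraries all lay below the others, with a log2 fold change of -0.32 (SE 0.12, adjusted p = 0.163).

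Sel1l and Syvn1, which encode the adaptor and the ubiquitin ligase HRD1 of the same complex, had log2 fold changes of -0.018 (SE 0.079) and -0.038 (SE 0.17). Syvn1 was at 52.6, 52.3 and 81.9 CPM in Pcif1fl/fl and at 60.3, 61.7 and 60.1 CPM in Prrx1-Cre;Pcif1fl/fl libraries. Its sign rested on Pcif1fl/fl replicate 3, and without that library it was 0.21 (SE 0.069, adjusted p = 0.0383 from edgeR). Edem1 without that library was 0.29 (SE 0.065, adjusted p = 0.00451).

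None of the 8 secretory carriers passed edgeR's test. An unadjusted p under 0.05 was reached by 1 and 1 passed with DESeq2, Sec23a in both cases, beside 9.56% and 3.76% of all genes that were higher. Of the 8, 4 had no overlap between genotypes, all of them higher in Prrx1-Cre;Pcif1fl/fl, beside 15.0% of all genes. Sec23a, the inner coat subunit of COPII needed for the export of procollagen, was at 77.1, 77.0 and 81.4 CPM in Pcif1fl/fl and at 99.3, 93.1 and 97.0 CPM in Prrx1-Cre;Pcif1fl/fl libraries. The libraries of each genotype lay close together and the groups apart. The log2 fold change was 0.30 (SE 0.083, adjusted p = 0.0707 from edgeR), without Pcif1fl/fl replicate 3 it was 0.33 (SE 0.067, adjusted p = 0.00256), and DESeq2 gave an adjusted p of 0.0423. Of its exonic bases 8.90% overlap Gm17529 on the opposite strand.

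Its partner Sec24d had 0.0081 (SE 0.092), and Mia3, which encodes the TANGO1 receptor that loads procollagen, had -0.095 (SE 0.12). Of the channel, Sec61a1 was at 217, 197 and 155 CPM in Pcif1fl/fl and at 226, 229 and 235 CPM in Prrx1-Cre;Pcif1fl/fl libraries (log2 fold change 0.28, SE 0.13, adjusted p = 0.258), and Sec61b had 0.36 with a SE of 0.25. The translocon-associated Ssr1, Ssr2 and Ssr3 had 0.21, -0.041 and 0.086, with SEs of 0.091, 0.088 and 0.080. In the same libraries the cargo genes Col1a1 and Col1a2 rose, Col1a1 from 3485 to 4491 CPM to 5827 to 6359 CPM (log2 fold change 0.61, SE 0.12, adjusted p = 0.0154 from edgeR) and Col1a2 from 3226 to 4707 CPM to 6204 to 6500 CPM (0.64, SE 0.14, adjusted p = 0.0322). Of the 6 fits that leave out a library Col1a1 passed in 3, not without Pcif1fl/fl replicate 2 or Prrx1-Cre;Pcif1fl/fl replicate 1 or 3, and Col1a2 in 2, those without Pcif1fl/fl replicate 1 or 3.

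The wider lists of the same pathways, without the 43 genes, had few genes past the test. Of 52 tested genes of ER folding and glycoprotein quality control 2 were higher and 0 lower by edgeR's test, with a median log2 fold change of 0.10. The 2 were 3.85% of the list, beside 2.88% of all genes that were higher and 4.51% that were lower. In this list 8 higher and 1 lower gene reached an unadjusted p under 0.05, and DESeq2 called 3 higher, beside 3.76% of all genes. Ero1a, the oxidase that recharges disulfide isomerases, was at 35.1 to 37.2 CPM in Pcif1fl/fl and at 47.2 to 47.3 CPM in Prrx1-Cre;Pcif1fl/fl libraries (0.38, SE 0.088, adjusted p = 0.0357). Calu, the calcium-binding calumenin, was at 522 to 538 and 667 to 696 CPM (0.35, SE 0.080, adjusted p = 0.0357). In both genes the libraries of each genotype lay close together. Of 29 genes of ER-associated degradation and of 73 genes of the translocon, signal peptide processing and vesicle coats 0 passed edgeR's test, with medians of 0.056 and 0.12. An unadjusted p under 0.05 was reached by 2 and 7 that were higher and by 0 and 1 that were lower, and DESeq2 called 0 and 1. Over all genes 9.56% and 11.8% reached it. In the last list 27 genes had no overlap in the higher direction and 1 in the lower, beside 15.0% and 15.7% of all genes. Without Pcif1fl/fl replicate 3 the 3 lists held 8, 3 and 15 genes that were higher and 2, 0 and 0 that were lower, beside 11.1% and 10.4% of all genes. Ero1a and Calu passed in that fit but in none of the 5 that leave out another library.

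The base at the annotated start was read from the same RefSeq table, since m6Am needs an adenosine there. Of the 38 member promoters 11 had A at the start and 17 had G, beside 34.4% and 35.6% of all promoters. The members with A, among them Asns, Edem1, Herpud1 and Trib3, had a median log2 fold change of 0.25 (n = 11), and those with G, among them Atf4, Chac1 and Ddit3, had 0.23 (n = 17). Psat1, with 2 promoters, counts in both. Annotated starts need not be those used in these cells, and the mark itself was not measured here.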

How the data were processed

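Poly(A) RNA was sequenced in paired reads. For the deposited file the authors aligned reads with HISAT2 (mm10 build) and counted them on genes, and these raw counts were not normalized. How reads were counted (tool, annotation, strand) is not given in the sources used here. Groups follow the sample labels, which show 3 libraries per genotype where the design text speaks of duplicates. Of the 20163 rows 92 repeat an Ensembl ID and were dropped. The test was the quasi-likelihood F test of edgeR 4.0.16 under R 4.3.3, after filterByExpr and TMM scaling, with no covariate and Benjamini-Hochberg adjustment over 13733 genes. A standard error is the fold change on the log2 scale over the root of its F value. The fits were tested on simulated counts. The members and lists were chosen with earlier results of these data known. Named were all members, the 2 genes with the smallest p per direction among those past the test in each wider list, and the markers Ptprc, Adipoq, Jchain, Pecam1 and S100a8. Lars, Slc7a1, Slc7a5, Lyz2, Spp1, Bglap, Sp7, Alpl, Ibsp, Igkc, Cd44, Thy1, Vim, Eng, Pdgfra, Col1a1 and Col1a2 were added after their values were seen. S100a9, Ltf and Lep were not analysed here. Positions, exon lengths and overlaps come from GENCODE M21 on GRCm38, and promoters from RefSeq on GRCm38.p6. Alternatives were DESeq2 1.42.0, limma-voom (limma 3.58.1), RLE or total-count scaling, 2 other filters, an adjusted p under 0.1, the replicate number as a block, leaving out each library, and a GC and length correction (splines with 5 degrees of freedom per library, for counts of calls chosen after seeing the data).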

Additional observations from a re-analysis of the deposited data

How the results depend on the processing

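The number of members that were higher, 2 by edgeR's test, was 10 with DESeq2, 7 with no filter on low counts, 6 with the GC and length correction and 11 at an adjusted p under 0.1, beside 3.76%, 2.20%, 4.17% and 4.89% of all genes, and it ranged from 1 to 20 when single libraries were left out, where 20 belongs to the fit that omits Pcif1fl/fl replicate 3 (11.1% of all genes) and 1 to those that omit Prrx1-Cre;Pcif1fl/fl replicate 1 or 3 (1.06% and 1.07%). Members that were lower numbered 0 under every alternative. The number past the thresholds of the study ranged from 0 to 1 without single libraries. The median log2 fold change of the secretory carriers, 0.15, ranged from 0.091 to 0.17 without single libraries, and that of the ATF4 targets from 0.44 to 0.68. Over all genes tested, 396 were higher and 620 lower by edgeR and 1544 and 1447 without Pcif1fl/fl replicate 3. Same-numbered libraries of the 2 genotypes deviated together with correlations of 0.055, -0.045 and -0.013, so the numbers were not taken to pair them, and with the replicate block 2 members were higher, beside 1.94% of all genes, and 0 lower. In the wider lists of ATF4 and CHOP targets and of ER folding the block gave 1 and 0 genes that were higher, beside 5 and 2 without it.

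Over members and alternatives, 539 log2 fold changes kept their sign and side of the threshold, 34 passed it in addition with the same sign, 2 (Chac1 without Prrx1-Cre;Pcif1fl/fl replicate 1 or 3) no longer passed, and 27 changed sign, none of them in a gene that passed the test with all libraries, while Syvn1 without Pcif1fl/fl replicate 3 both changed sign and passed. Ddit3 passed under every alternative run. The changes of sign were as follows, and their cause was not tested. With total-count scaling Eif2ak3 had -0.016, Xbp1 -0.0011, Creb3l1 -0.0049 and Sec24d -0.013. With the GC and length correction Atf6 had 0.047, Creb3l1 -0.013 and Sel1l 0.029. Atf6 had 0.0073 with limma-voom and 0.0090 with the replicate block. Without single libraries Pdia4 ranged from -0.10 to 0.011, Dnajb9 from -0.40 to 0.055, Eif2ak3 from -0.031 to 0.038, Atf6 from -0.084 to 0.15, Xbp1 from -0.036 to 0.071, Creb3l1 from -0.15 to 0.27, Creb3l2 from -0.18 to 0.010, Sel1l from -0.044 to 0.0016, Syvn1 from -0.15 to 0.21, Ssr2 from -0.071 to 0.0037, Sec24d from -0.031 to 0.086 and Mia3 from -0.20 to 0.039. Of the 43 genes Chac1 and Trib3 had the fewest counts in every library, at 33 to 148 and 56 to 157.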
